A study of Mus musculus with 6 samples.

Results

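NSC-only promoters are the start sites that carried a narrow H3K4me3 peak in neural stem cells (NSCs), no H3K27me3 in those cells, and no H3K4me3 peak in the neurons made from them. They were chosen from the peak lists by measured values. An NSC H3K4me3 peak was taken if it was under 5000 bp wide, held at least 3 times as many immunoprecipitated as input reads (0 input reads taken as 1), and lay within 1000 bp of an annotated start site. It also had to overlap no NSC H3K27me3 peak and no neuronal H3K4me3 peak. Of 30416 NSC H3K4me3 peaks, 8951 met every criterion but the last, and 867 of these met that one too. They lay at 942 start sites of 761 named genes and of genes without a symbol. The other 8084, which had a neuronal H3K4me3 peak, are called kept promoters here and serve as the comparison.

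Both cell types were mouse, C57BL/6. The NSCs, a line grown from embryonic stem cells, were used at passages 25 to 30, on differentiation day 0, and were negative for the reporter. The neurons were collected on day 11, when they had spent 4 days in one medium followed by 7 in another. They were sorted for RedStar, a red fluorescent protein under the Tau promoter, so the sort selects cells in which that neuronal promoter is active. Each antibody was used on 1 library of each cell type, each with 1 input, so nothing below has a replicate check, no test between the cell types was possible, and intervals (exact binomial, 95%) cover counting error only. A peak that is missing from bulk chromatin may mean fewer cells with the mark or less of it per cell, and these cannot be told apart.

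H3K4me3 is laid down around transcription start sites by the COMPASS family of methyltransferases and marks promoters that are active or poised. H3K27me3 is the product of Polycomb repressive complex 2 and marks silenced developmental genes. When a stem cell leaves the cell cycle and becomes a neuron, promoters of cell division genes and of the glial programme are among those known to be shut down, with or without Polycomb.

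The H3K4me3 libraries differed in how much was called, which bears on every absence below. Neurons had 14846 H3K4me3 peaks and NSCs 30416. The H3K27me3 lists held 36053 peaks over 146.4 Mb in neurons and 26539 over 173.2 Mb in NSCs. How far this difference bears on H3K27me3 listed in neurons alone was not tested. Reads inside called peaks ranged from 983266 in neuron H3K4me3 to 3623654 in NSC H3K4me3. At kept promoters, neurons had a median of 0.306 times the NSC reads. Library totals are unknown, so fewer reads sequenced, weaker enrichment and less H3K4me3 in neurons cannot be told apart. The marker genes of neural stem cells carried H3K4me3 within 1000 bp of the start site at 17 of 20 in NSCs and 18 of 20 in neurons, and those of neurons at 10 and 11 of 18. Astrocyte markers were marked at 18 of 22 in NSCs and 12 in neurons, oligodendrocyte markers at 1 and 3 of 6, and microglia and blood markers at none of 3 in either. Embryonic stem cell markers were marked at 3 of 8 in NSCs and 2 in neurons. Mesenchyme and fibroblast markers were marked at 4 and 3 of 9, and endothelial markers at 2 and 1 of 6. The sorted neurons thus kept H3K4me3 at most stem cell marker genes.

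Cell division genes held 6 of the 35 promoters with 200 or more NSC reads. At that depth 4 of 68 mitosis and 2 of 48 replication genes were NSC-only, against 33 of 6304 of all symbols (0.523%). Over all read numbers it was 12.8% and 7.46% against 7.83%, so neither list stood apart. The RefSeq windows of some of the 6 are shown first, because their letters can be compared with sites known from cell cycle genes. Each window holds 250 bases before and 50 after the RefSeq start site on GRCm38.p6. In the next lines, capitals mark CCAAT, the NF-Y site, and TTTGAA or TTCGAA, the letters of the cell cycle homology region, on either strand.
Cdk1 promoter (chr10:69352863-69353162, - strand): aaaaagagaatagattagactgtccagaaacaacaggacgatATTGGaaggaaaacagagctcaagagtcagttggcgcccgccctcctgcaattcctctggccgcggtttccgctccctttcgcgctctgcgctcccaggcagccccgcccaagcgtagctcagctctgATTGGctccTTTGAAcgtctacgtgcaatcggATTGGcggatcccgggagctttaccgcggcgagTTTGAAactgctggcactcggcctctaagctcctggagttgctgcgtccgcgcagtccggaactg
Ube2c promoter (chr2:164769679-164769978, + strand): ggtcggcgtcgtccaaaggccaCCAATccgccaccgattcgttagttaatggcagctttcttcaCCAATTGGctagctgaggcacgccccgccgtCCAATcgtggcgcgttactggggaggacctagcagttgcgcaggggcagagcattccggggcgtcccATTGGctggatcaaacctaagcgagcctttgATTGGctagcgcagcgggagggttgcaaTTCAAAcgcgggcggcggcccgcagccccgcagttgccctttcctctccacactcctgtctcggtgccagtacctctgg
Bub1b promoter (chr2:118597961-118598260, + strand): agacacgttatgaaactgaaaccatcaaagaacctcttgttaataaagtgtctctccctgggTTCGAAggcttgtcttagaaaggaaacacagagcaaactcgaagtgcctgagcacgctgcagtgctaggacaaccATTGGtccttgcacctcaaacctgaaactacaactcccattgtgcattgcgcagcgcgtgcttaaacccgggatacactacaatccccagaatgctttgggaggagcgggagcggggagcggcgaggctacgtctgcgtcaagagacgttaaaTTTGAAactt
Tk1 promoter (chr11:117825965-117826264, - strand): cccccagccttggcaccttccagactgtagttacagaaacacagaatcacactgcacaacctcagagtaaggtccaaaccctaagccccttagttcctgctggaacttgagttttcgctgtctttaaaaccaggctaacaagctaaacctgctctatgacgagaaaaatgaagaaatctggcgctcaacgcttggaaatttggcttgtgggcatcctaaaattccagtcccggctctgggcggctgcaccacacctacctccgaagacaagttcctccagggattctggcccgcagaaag
The Cdk1 window held 3 CCAAT matches and 2 of TTTGAA, and the Ube2c window 6 CCAAT matches, a pair of them overlapping on opposite strands, and 1 of TTTGAA. Bub1b had 1 CCAAT, 1 TTTGAA and 1 TTCGAA match, and none of these letters was found in the Tk1 window. Among all 32851 RefSeq promoter windows of this length, 37.4% held CCAAT, 11.7% held it more than once, and 19.2% held TTTGAA or TTCGAA. A match is a description of the letters only.

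A second group of windows shows promoters that carried neuronal H3K27me3 (Col4a1, Dlx1 and Tead2) beside one that did not (S100b). Here capitals mark CG dinucleotides, the bases at which CpG islands are dense.
Col4a1 promoter (chr8:11312777-11313076, - strand): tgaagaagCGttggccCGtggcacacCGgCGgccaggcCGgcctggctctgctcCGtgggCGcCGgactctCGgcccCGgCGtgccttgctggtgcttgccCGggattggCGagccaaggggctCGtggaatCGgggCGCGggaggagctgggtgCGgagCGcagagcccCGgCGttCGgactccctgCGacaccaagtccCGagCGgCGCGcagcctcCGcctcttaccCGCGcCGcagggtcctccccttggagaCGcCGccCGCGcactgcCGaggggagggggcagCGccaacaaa
Dlx1 promoter (chr2:71529195-71529494, + strand): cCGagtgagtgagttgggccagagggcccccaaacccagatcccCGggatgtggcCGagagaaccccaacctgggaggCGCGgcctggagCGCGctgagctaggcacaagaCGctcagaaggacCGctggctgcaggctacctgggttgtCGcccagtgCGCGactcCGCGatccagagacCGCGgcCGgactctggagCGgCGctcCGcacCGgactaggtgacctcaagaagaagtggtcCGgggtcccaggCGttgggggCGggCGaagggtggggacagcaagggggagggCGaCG
Tead2 promoter (chr7:45215542-45215841, + strand): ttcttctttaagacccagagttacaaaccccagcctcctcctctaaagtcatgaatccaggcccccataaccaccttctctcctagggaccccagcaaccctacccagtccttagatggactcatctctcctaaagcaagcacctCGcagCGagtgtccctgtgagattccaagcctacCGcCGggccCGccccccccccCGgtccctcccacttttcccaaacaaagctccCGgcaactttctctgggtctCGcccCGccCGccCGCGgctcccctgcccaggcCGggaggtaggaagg
S100b promoter (chr10:76253586-76253885, + strand): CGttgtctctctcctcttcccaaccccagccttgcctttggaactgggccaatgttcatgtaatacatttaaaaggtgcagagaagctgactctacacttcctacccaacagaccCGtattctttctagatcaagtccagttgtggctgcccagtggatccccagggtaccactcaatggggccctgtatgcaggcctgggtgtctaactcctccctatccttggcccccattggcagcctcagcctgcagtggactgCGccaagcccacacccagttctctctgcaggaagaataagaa
The Col4a1 window held 37 CG dinucleotides, Dlx1 27, Tead2 13 and S100b 3, against a median of 7 over all windows. The Cdk1, Ube2c, Bub1b and Tk1 windows above, also of promoters without neuronal H3K27me3, held 24, 25, 15 and 8. So few windows do not show whether CG number goes with neuronal H3K27me3. TATAAA and the palindromic nuclear factor I motif, also searched on both strands, were found in none of these windows, and 13.6% and 0.0365% of all windows held them. GGGCGG, the Sp1 site, searched likewise, occurred once each in the Col4a1 and Dlx1 windows, 3 times in that of Tead2 and not in that of S100b, and 35.7% of all windows held it. A comparison of CG content between NSC-only and kept promoters was void, because only 582 of the 761 symbols (76.5%) matched a window and 80% was needed.

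The 867 promoters were the 9.69% of 8951 (interval 9.08 to 10.3) in which neurons had no overlapping H3K4me3 peak, and most of them were weakly marked in NSCs to begin with. The median NSC-only peak was 1400 bp wide, with 79 reads over 12 input reads. The median kept peak was 2400 bp wide, with 240 over 25. Among peaks with under 50 NSC reads, 190 of 232 (81.9%) had no neuronal peak. From 100 to under 150 reads it was 178 of 1033 (17.2%), and at 200 reads or more 35 of 5411 (0.647%, interval 0.451 to 0.898). Absence in neurons therefore went with a small NSC peak, and the part of the lower neuronal read numbers in it was not tested. Kept promoters with 50 to 99 NSC reads had a median of 28 neuronal reads, and the fewest at any kept promoter were 13. Those with 200 or more had a median of 87, and 95% of them had at least 45.

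**Figure D1:**
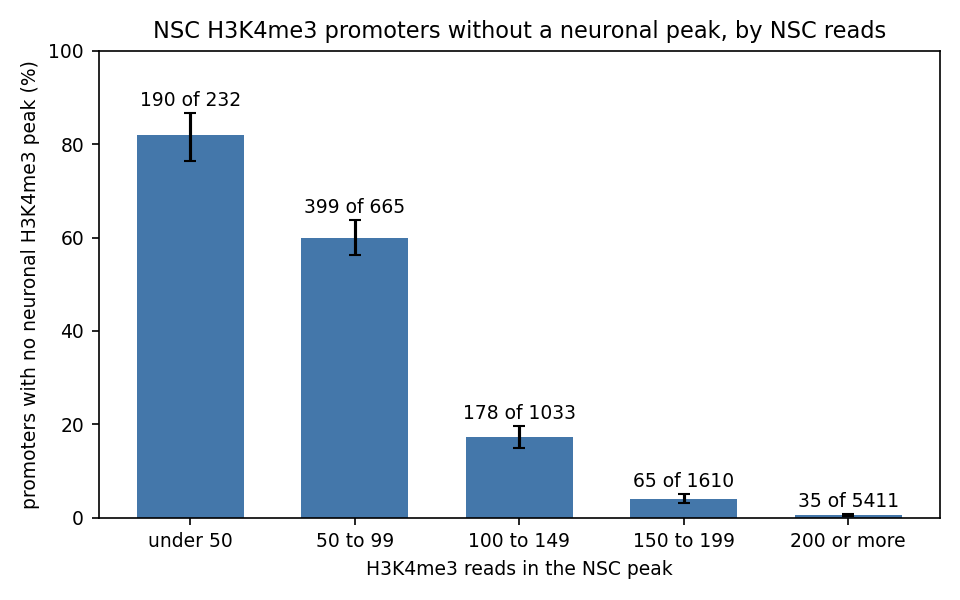
Bars give the percentage of NSC H3K4me3 promoter peaks (under 5000 bp, read ratio of 3 or more, no NSC H3K27me3) with no overlapping neuronal H3K4me3 peak, in classes of reads in the NSC peak, with exact 95% binomial intervals and counts above. The share drops from 81.9% under 50 reads to 0.647% at 200 or more.

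The neuronal mark was usually far away. The nearest neuronal H3K4me3 peak lay at a median of 32001 bp, and 680 of 867 NSC-only promoters had one within 100000 bp. It lay within 1000 bp at 32, within 5000 bp at 114 and within 10000 bp at 191. Of the 942 start sites, 119 belonged to genes with a neuronal H3K4me3 peak elsewhere between their annotated ends, and 36 had one within 1000 bp of the start site itself. Also, 36 of the 942 start sites lay within 1000 bp of a kept promoter, so the NSC-only peak there was a second, separate one. For the other genes this was not examined. At some of them, such as Eef1a1, the NSC-only peak covered the annotated start site. Genes with a neuronal peak elsewhere did not lack H3K4me3 in neurons. Id1, the inhibitor of basic helix-loop-helix factors, is one: its NSC-only peak had 23 reads over 6 input reads, 788 bp from the start site and 601 bp from a neuronal peak. Gas1 (63 over 11) and Nfib (22 over 6), of a Hedgehog co-receptor and a nuclear factor I protein, also had a neuronal peak elsewhere in the gene, as did Hoxa3 (31 over 9).

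At the limits of the rule the following promoters stood just inside and just outside. The widest NSC-only peaks, at Camk1g and Cd93, were 4600 bp, and 7 promoters were left out on width alone, among them Acsbg1 and Chst7 with 5200 bp and 338 and 318 reads. By read ratio, Triobp and Arfip1 stood at 3.0 and Thrsp, just outside, at 2.98. By distance, Tmbim1 lay 997 bp from its start site and was kept in, and Ssx2ip lay 1007 bp away and was not. The peaks of Ildr2 and Pcdhb10 abutted a neuronal H3K4me3 peak and those of Abat and Gm1568 an NSC H3K27me3 peak. A further 488 promoters had no neuronal H3K4me3 either, but overlapped NSC H3K27me3.

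The 35 promoters with 200 or more NSC reads name the genes at which absence in neurons was least tied to a weak NSC peak. Their nearest neuronal peaks lay 2201 to 286801 bp away, with a median of 27601 bp, and 3 had a neuronal H3K4me3 peak elsewhere in the gene. Scarb1, of the receptor for high-density lipoprotein, had 360 reads over 26 input reads in a 2600 bp peak, and no neuronal H3K4me3 within 46801 bp. Scd1, of the enzyme that desaturates stearoyl-CoA, had 287 over 39, and Slc29a1, of a nucleoside transporter, 211 over 43. Fhl3 and Trim16, of a LIM-domain and a tripartite-motif protein, had 297 over 31 and 288 over 40. These genes serve lipid uptake and synthesis, nucleoside transport and other functions. Dlg4 had the most reads of the 867, 365 over 62, in a peak that began 613 bp downstream of its start site. Dlg4 encodes the postsynaptic scaffold PSD-95, and a neuronal H3K4me3 peak lay 2201 bp away and inside the gene. Also among the 35 were Asf1b (216 over 21), of a replication-coupled histone chaperone, and Lgals1 (229 over 47), of galectin-1, named after their values were seen.

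Cell division genes were next. Of 86 mitosis and cell cycle genes at these promoters 11 were NSC-only (12.8%, interval 6.56 to 21.7), and of 67 replication and repair genes 5 (7.46%, 2.47 to 16.6), against 7.83% of all 9725 gene symbols there, so neither share stood apart from the background. Among genes with 200 or more NSC reads, 4 of 68 and 2 of 48 were NSC-only, against 33 of 6304 (0.523%). The 4 were Ube2c, Ccna2, Cdk1 and Bub1b. Ccna2, of cyclin A2, lay on chromosome 3 from 36468400 to 36471799 (mm9), with 323 reads over 43 and the nearest neuronal peak 16001 bp away. Cdk1, of the kinase that drives mitotic entry, lay on chromosome 10 from 68813600 to 68816199, with 282 reads over 28 and no neuronal peak within 136601 bp. Ube2c, of the ubiquitin-conjugating enzyme that works with the anaphase-promoting complex, had 350 over 27, and Bub1b, of a spindle checkpoint kinase, 229 over 12. The 2 replication genes were Tk1, of thymidine kinase (294 over 49), and Cdc6, which loads the replicative helicase (212 over 26). The other cell division members ran from 56 to 177 reads and included Ccnb2 (112), Kif4 (176), Pold1 (177), Mcm10 (119) and Fanca (109). None of the 16 had a neuronal H3K27me3 peak, which is read against 92 of all 761 NSC-only symbols (12.1%) and on so few genes is not a result about them. The remaining 75 mitosis genes and 62 replication genes had a neuronal H3K4me3 peak at the promoter.

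Extracellular matrix and adhesion genes were more often NSC-only than genes at large in these libraries, 11 of 33 (33.3%, interval 18.0 to 51.8) against the 7.83%. This list stood highest of the 13 with at least 10 genes scored, and the lists were chosen with earlier results of these data known. The interval counts Col4a1 and Col4a2, which share a promoter, as separate genes. The median NSC peak of all 33 held 233 reads, and those of the NSC-only genes ran from 57 to 259. Among matrix genes with 200 or more NSC reads, 2 of 18 were NSC-only, against 33 of 6304 of all symbols (0.523%). The part of peak size in the 33.3% was not tested. Cd44, of the hyaluronan receptor, lay on chromosome 2 from 102739200 to 102742399 with 233 reads over 30 and no neuronal peak within 169201 bp. Timp4, of a metalloproteinase inhibitor, had 259 over 71, and Hspg2, of the basement membrane proteoglycan perlecan, 174 over 23. The promoter that Col4a1 and Col4a2, of basement membrane collagen, share between them had 141 over 23. Gpc4, of an X-linked glypican, had the highest read ratio of all, 109 over 2. Sparc (128 over 30), Col11a1 (89 over 9), Nid2 (71 over 14) and Itga8 (58 over 12) completed the list with Lamb2, which had a pair of NSC-only peaks with 64 and 57 reads and a neuronal H3K4me3 peak elsewhere in the gene. Of the 11 genes, 5 (at 4 promoters) also had neuronal H3K27me3, against the 12.1% of all NSC-only symbols.

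Of 13 astrocyte markers 4 were NSC-only (30.8%, interval 9.09 to 61.4), against 7.83% of all gene symbols: Cd44, Sparc, S100b and Nfib. Among those with 200 or more NSC reads it was 1 of 7, Cd44, against 33 of 6304 of all symbols (0.523%). The part of peak size in the 30.8% was not tested. S100b, of a calcium-binding protein of astrocytes, lay on chromosome 10 from 75716000 to 75718599 with 107 reads over 31, and no neuronal peak lay within 14801 bp. None of the 4 had neuronal H3K27me3, too few to read against the 12.1%. Cd44 and Sparc are also counted among the matrix genes, and Nfib is marked elsewhere in the gene, so S100b is the one marker here that neither applies to.

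Receptors and signalling genes were few. Of 18 receptor tyrosine kinase and feedback genes 3 were NSC-only, Ephb4 (272 reads over 34), Epha2 (115 over 12) and Axl (85 over 12), of Eph receptors and of a receptor for Gas6. Of 39 Notch, Wnt, BMP and Hedgehog genes 4 were, among them the receptor gene Notch3 (119 over 22) and the Gas1 and Id1 peaks above. Tead2, of a DNA-binding partner of YAP, had 223 over 22 and with Axl made 2 of 13 YAP and TEAD genes. All 3 intervals included the 7.83% of all genes.

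Of 44 cilium genes 7 were NSC-only (15.9%, interval 6.64 to 30.1), and the interval included the 7.83% of all genes. Foxj1, the master factor of motile cilia, had 127 reads over 39 in a 3800 bp peak, and Rfx2, another ciliary transcription factor, 123 over 12. Ift172, of intraflagellar transport, had 154 over 9, B9d1 136 over 26 and Tctn2 113 over 16, both of the ciliary transition zone, and the other 2 were Bbs1 and Bbs5. No neuronal H3K27me3 peak overlapped these 7, too few to read against the 12.1%.

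Of 16 synaptic genes 5 were NSC-only (31.2%, interval 11.0 to 58.7), against 7.83% of all gene symbols, although these are genes that neurons use. Among those with 200 or more NSC reads it was 1 of 9, Dlg4, against 33 of 6304 of all symbols (0.523%). The part of peak size in the 31.2% was not tested. Dlg4 and Dlg3 had a neuronal H3K4me3 peak elsewhere in the gene. Sv2a, of a synaptic vesicle protein (59 over 10), and Gria3, of an AMPA receptor subunit (166 over 13), had none. Gria3 was also the only X-linked NSC-only promoter with neuronal H3K27me3. Its neuronal peak there was small, with 35 reads over 9.

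The other lists lay near the background or held too few genes to read. NSC-only were 2 of 27 lipid genes (Scd1 and Acsf2), 2 of 37 lysosomal genes (Gaa and Arsa), 2 of 21 innate immune genes (Tlr2 and Fas), 1 of 3 germ line genes (Dazl) and 1 of 4 neural stem cell markers (Id1). Of 26 housekeeping genes 2 were, Eef1a1 (75 over 17) and Rpl13a (74 over 13), and both had a neuronal H3K4me3 peak elsewhere in the gene. No NSC-only promoter was found for the 2 neuron markers scored, or for the 2 embryonic stem cell, 2 mesenchyme and 1 oligodendrocyte markers. No endothelial, microglial or blood marker had a promoter of this kind to score.

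**Figure D2:**
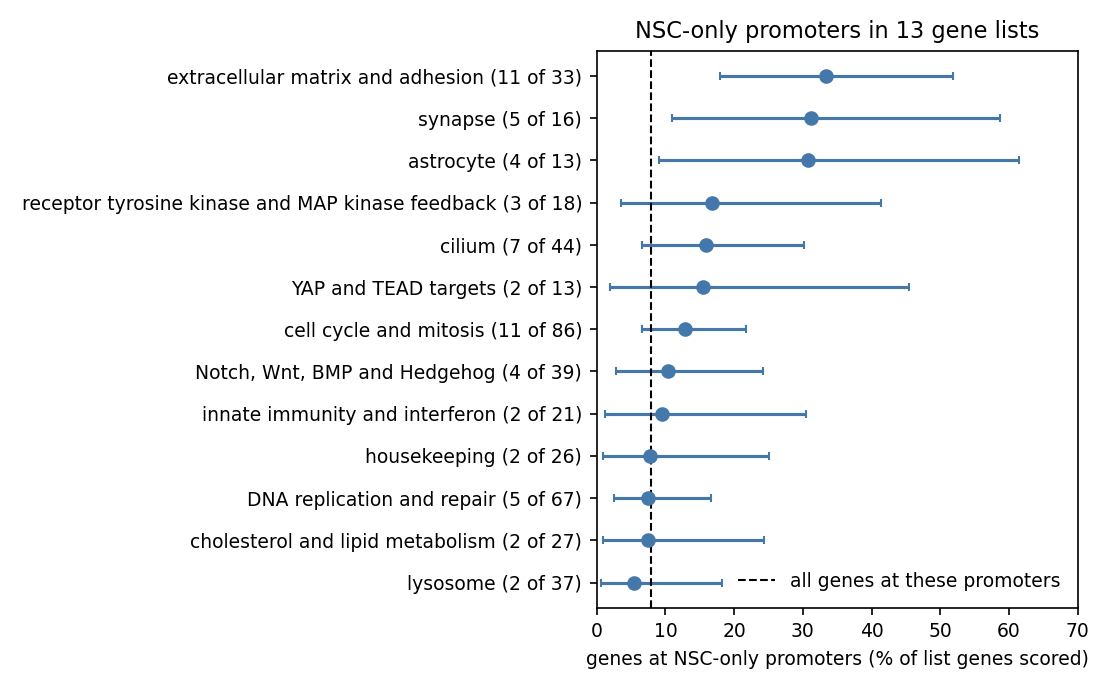
Points give, for the 13 lists with at least 10 genes scored, the percentage of genes at NSC-only promoters, with exact 95% binomial intervals; the dashed line is the 7.83% of all gene symbols at these promoters. The matrix and adhesion list stands highest at 33.3%, and the synaptic and astrocyte lists follow on fewer genes.

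The neuronal H3K27me3 list was not used to choose the promoters. It overlapped 95 of the 867 (11.0%, interval 8.96 to 13.2) and 161 of the 8084 kept promoters (1.99%, 1.70 to 2.32), and 2.86% of both together. Polycomb marking in neurons was thus several times as frequent where H3K4me3 had no neuronal peak, although kept peaks were wider and had more chance to overlap. Among NSC-only promoters the share rose over classes of NSC reads, but not over classes of read ratio, where it was 10.2% from 3 to under 5, 15.6% from 7 to under 9 and 6.96% at 12 or more. Under 50 NSC reads, 15 of 190 NSC-only promoters (7.89%) and 4 of 42 kept ones (9.52%) had neuronal H3K27me3, and the intervals overlapped. From 100 to under 150 reads it was 23 of 178 (12.9%) against 23 of 855 (2.69%), and from 150 to under 200 reads 12 of 65 (18.5%) against 22 of 1545 (1.42%). At 200 reads or more it was 9 of 35 (25.7%, interval 12.5 to 43.3) against 103 of 5376 (1.92%, 1.57 to 2.32). By width the NSC-only share was 33 of 356 (9.27%) from 1000 to under 1600 bp, against 17 of 822 kept ones (2.07%), and in the wider classes it was 30 of 231, 12 of 84 and 7 of 52, with no further rise. The large majority of NSC-only promoters, 772 of 867, had neither mark listed in neurons.

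**Figure D3:**
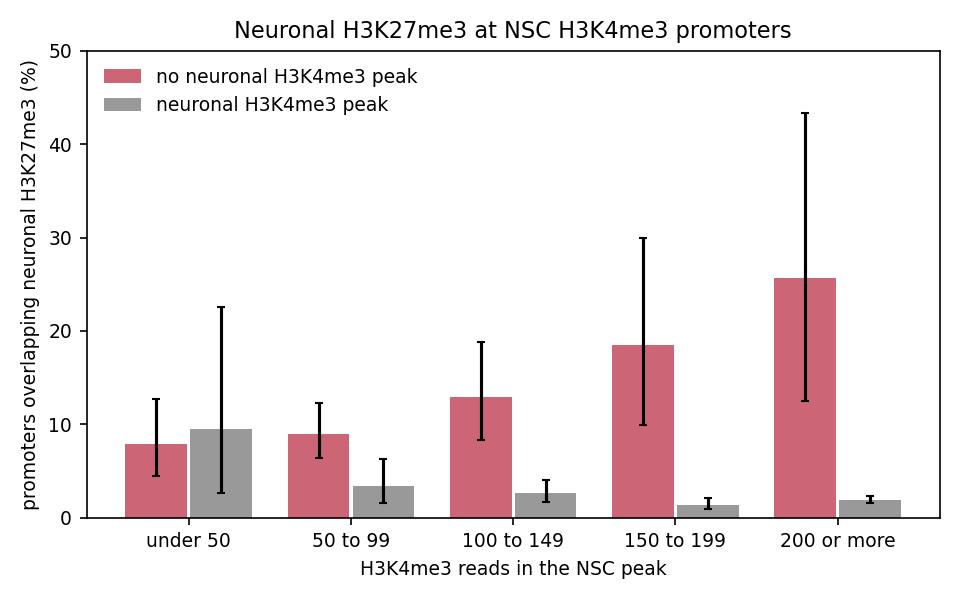
Bars give the percentage of promoters that overlapped a neuronal H3K27me3 peak, red without and grey with a neuronal H3K4me3 peak, in classes of NSC H3K4me3 reads, with exact 95% binomial intervals. The red bars rise from 7.89% to 25.7%, while the grey ones stay at 3.38% or below from 50 reads up.

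The rule had removed every promoter that overlapped NSC H3K27me3, so few of these domains could meet one. The neuronal domain touched an NSC H3K27me3 peak at 4 of the 95 promoters and at 17 of the 161 kept ones, and 80 of the 95 had no NSC peak within 10000 bp. Where the nearest NSC domain was 10000 to 50000 bp off, 36 of 222 NSC-only promoters (16.2%) and 26 of 1911 kept ones (1.36%) were overlapped. Beyond 200000 bp it was 12 of 234 (5.13%, interval 2.68 to 8.79) and 38 of 2042 (1.86%, 1.32 to 2.55). The neuronal peaks at the 95 promoters had a median width of 3000 bp and 57 reads, near the 3000 bp and 56 reads of all neuronal H3K27me3 peaks. They covered 50 of the H3K4me3 peaks whole. At an FDR under 1e-20, 24 NSC-only promoters (2.77%) and 23 kept ones (0.285%) were overlapped.

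The domains with most reads were at genes of varied function. Camk1g, of a calcium-dependent kinase, had 265 H3K4me3 reads over 83 in NSCs and lay under neuronal H3K27me3 that spanned 46400 bp, 1592 reads over 641, which touched NSC H3K27me3 that began 9201 bp from the promoter peak. Kank2, of an adaptor between integrin adhesions and the cytoskeleton, lay on chromosome 9 from 21602000 to 21603999 with 160 over 20. Its neuronal domain was 18200 bp wide with 488 reads over 140, and the nearest NSC one was 186801 bp away. The Kank2 domain thus touched no NSC H3K27me3 peak. Tle2, of a Groucho corepressor, had 225 over 51 for H3K4me3 and 221 over 96 for neuronal H3K27me3. St3gal4, of a sialyltransferase, had 223 over 25 and 210 over 66. Ninj1, of a membrane protein, had 196 over 24 and 199 over 57. At Creb3l1, of a membrane-bound transcription factor, the H3K4me3 peak was weak (31 over 10) and the H3K27me3 peak strong (173 over 49), and the gene had a neuronal H3K4me3 peak elsewhere. The peak between Anxa5 and 1810062G17Rik (75 over 18) and that of Amigo1, of a neuronal adhesion protein (120 over 16), had neuronal H3K27me3 of 105 over 31 and 162 over 45. Klhdc7a (106 over 39), Ildr2 (187 over 117), Kcnk2 (97 over 30) and Gsg1 (316 over 129) were the others with most H3K27me3 reads. The Gsg1 promoter peak abutted an NSC H3K27me3 peak, which the neuronal domain touched. Ildr2 and Kcnk2 had a neuronal H3K4me3 peak elsewhere in the gene. The neuronal H3K27me3 peaks of Klhdc7a and Ildr2 were not at an FDR under 1e-20.

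The Col4a1 and Col4a2 promoter, on chromosome 8 from 11312000 to 11313999, lay entirely under neuronal H3K27me3 that spanned 4600 bp, 91 reads over 25. The nearest NSC domain was 163201 bp away. Epha2 was wholly covered as well, by 82 reads over 23. Tead2 had a small neuronal peak of 30 reads over 5 across 45.5% of its H3K4me3 peak, and an NSC H3K27me3 domain lay 3201 bp away. At Scarb1 the neuronal peak had 57 reads over 26. Dlx1, of a homeobox factor of inhibitory neurons, named after its values were seen, had 139 over 20 for H3K4me3 in NSCs and 59 over 20 for H3K27me3 in neurons. Col11a1, Nid2 and Itga8 had 47 over 23, 39 over 18 and 34 over 6, none of them at an FDR under 1e-20. Of the genes in this paragraph, the shared collagen promoter and Epha2 passed that limit.

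**Figure D4:**
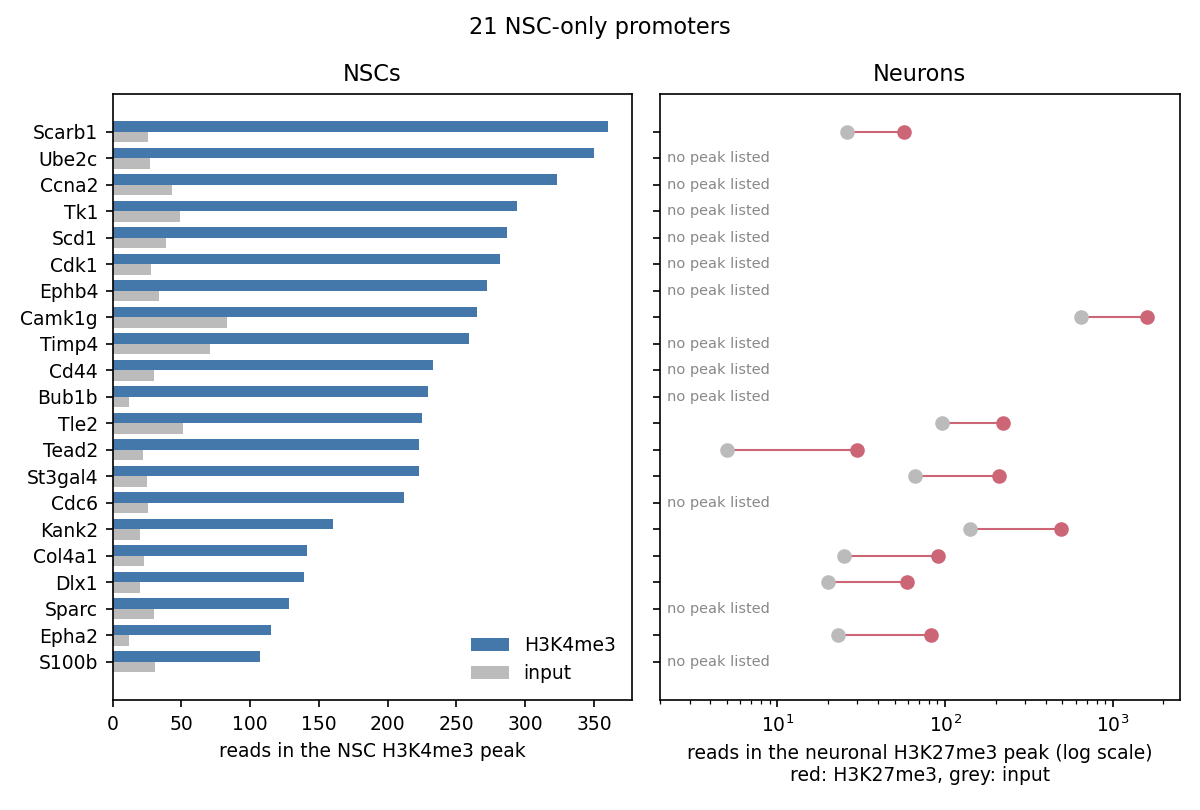
For 21 NSC-only promoters, bars at left give H3K4me3 and input reads in the NSC peak, and points at right give H3K27me3 (red) and input (grey) reads in the overlapping neuronal H3K27me3 peak on a log scale, or state that none is listed. The cell division promoters Ube2c, Ccna2, Tk1, Cdk1, Bub1b and Cdc6 have none, while Camk1g and Kank2 have the most, 1592 and 488 reads.

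The X chromosome held more than its share. Of 340 X-linked promoters 92 were NSC-only (27.1%, interval 22.4 to 32.1), against 775 of 8608 on autosomes. Among the 19 autosomes the share ran from 3.77% on chromosome 1 to 11.7% on chromosome 19. X-linked promoters had a median of 5.0 input reads per kb and 116 H3K4me3 reads, against 10.7 and 232 on autosomes, and chromosome 1 had 15.3 and 360. X thus had the lowest input density and the highest share and chromosome 1 the reverse. The part of input density in these shares was not tested. Within classes of NSC reads X and autosomes stood closer in some and not in others. It was 28 of 140 against 150 of 892 (16.8%) from 100 to under 150 reads and 43.0% against 63.5% from 50 to 99, whereas from 150 to under 200 it was 6 of 48 (12.5%, interval 4.73 to 25.2) against 59 of 1562 (3.78%, 2.89 to 4.85). Within all classes of width, and of read ratio from 5 up, X stayed above the autosomes. It was 25.8% against 8.15% from 1600 to under 2200 bp and 26.2% against 3.73% at a ratio of 12 or more. At a ratio of 3 to under 5 it was 0 of 3 on X against 256 of 487 (52.6%). At kept promoters, neurons had 0.308 times the NSC reads on X and 0.29 to 0.346 times on autosomes. Neuronal H3K27me3 was found at 1 of the 92 X-linked NSC-only promoters and at 94 of the 775 others (12.1%). At kept promoters it was 0 of 248 on X and 161 of 7836 off X (2.05%). Of all neuronal H3K27me3 peaks, 0.291% lay on X.

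**Figure D5:**
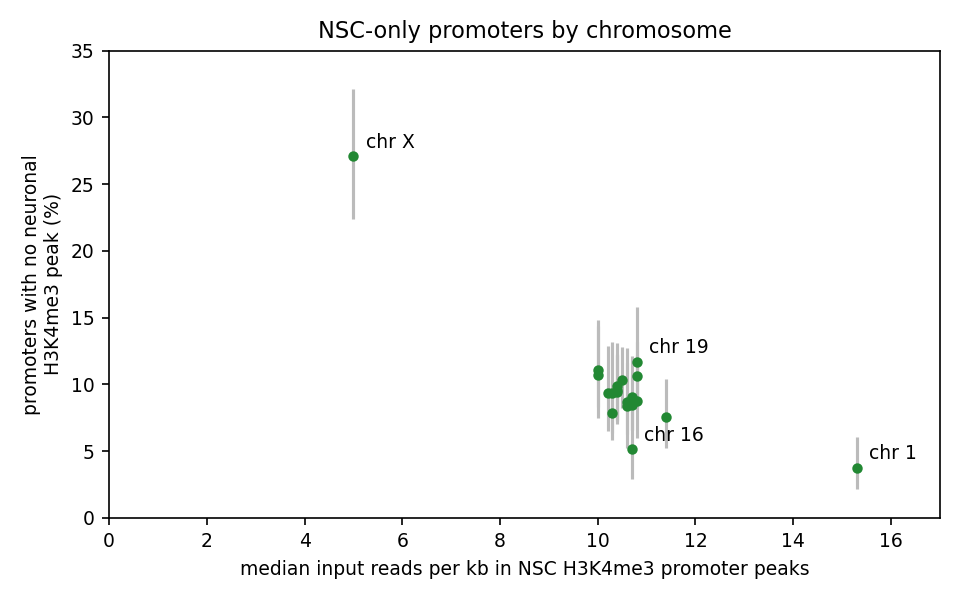
Each point is a chromosome (19 autosomes and X): median NSC input reads per kb in its H3K4me3 promoter peaks on the x axis, percentage of those promoters with no neuronal H3K4me3 peak on the y axis, bars the exact 95% binomial interval. X stands apart at 5.0 reads per kb and 27.1%, and chromosome 1 at 15.3 and 3.77%.

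The X-linked members covered many functions. The peak that Kif4, of a chromosome-binding kinesin, shares with Pdzd11 had 176 reads, and that of Gria3 166. Suv39h1, of the H3K9 methyltransferase, had 121 reads over 19, and Amot, of an angiomotin that binds YAP, 120 over 15 with no neuronal peak within 1570601 bp. The largest distances of all 867 were at Lrriq1 (2215801 bp) and Nudt12 (1575001 bp), both on autosomes and with 54 and 72 reads.

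NSC-only promoters also differed from kept ones in the start sites near them. A start site lay inside the peak at 716 of 867 (82.6%) and at 7867 of 8084 kept ones (97.3%). No start site with a gene symbol was found at 15.7% (interval 13.3 to 18.3) against 2.62% (2.29 to 2.99). Promoters with 2 or more start sites made 81 of 867 (9.34%, 7.49 to 11.5) against 22.5% (21.6 to 23.4). These shares also went with peak size. Under 100 reads 8.83% of NSC-only and 10.4% of kept promoters had 2 or more start sites. From 100 to under 200 reads it was 10.3% and 12.2%. At 200 reads or more it was 4 of 35 (11.4%, 3.20 to 26.7) against 27.8% (26.6 to 29.0), and these intervals overlapped slightly. That class held 35 of the 867 NSC-only promoters and 5376 of the 8084 kept ones. The 9.34% and 22.5% thus compare peaks of unlike size. The excess of start sites without a symbol was 118 of 589 against 42 of 308 (13.6%) under 100 reads and 6.58% against 2.71% from 100 to under 200.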

How the data were processed

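Chromatin from NSCs and from sorted neurons was immunoprecipitated for H3K4me3 and H3K27me3, per the labels' protocols after shearing to 300 bp. Per the submitters' processing notes, SICER, Bowtie, SAMtools and FastQC were used with the build mm9. For their versions and settings and the treatment of duplicates: not given in the sources used here. The authors deposited 1 peak list for each immunoprecipitated library, with the count of immunoprecipitated and of input reads, a p-value, an FDR (all under 0.001, bounds in steps of 200 bp, checked on the files) and a fold ratio over input. The deposited gene tables hold positions (other columns) of Ensembl genes. Reads outside peaks were not analysed here, so library totals are unknown.

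From these, the read ratio was count over count with no scaling, and the start site was the first base, by strand, of each of the 18778 genes in the 4 tables. Distances count bases to the nearest edge, 1 meaning adjacent. Overlap was at least 1 bp, and its code was tested on simulated data against bedtools 2.31.1. Neither the authors' fold nor their p-value ranks anything here; FDR served as a stricter limit. Intervals are exact binomial (Clopper-Pearson). Promoter windows are RefSeq's, GRCm38.p6, matched by symbol, and no coordinate was converted. Scripts ran under Python 3.11.15 (scipy 1.17.1, pandas 2.3.3, matplotlib 3.10.9, numpy 2.4.6).

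The promoters and the 21 gene lists were chosen with earlier results of these data known. Genes are named by rule (8 highest by ratio, width and reads, up to 12 by neuronal H3K27me3 reads, up to 5 per list, 4 by distance, those at the limits), with those outside it marked or given as examples of a list. Genes without a symbol are counted, not named, and some genes of the lists are not reported here. Alternatives changed the limits on width, ratio, distance, FDR, overlap and depth.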

Additional observations from a re-analysis of the deposited data

How the results depend on the processing

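Of 18 alternatives, 16 bear on the number of NSC-only promoters, which stayed between 611 and 996 except where a minimum of NSC reads, chosen after seeing the data, was set. It was then 278 promoters at 309 start sites with at least 100 reads and 35 at 39 with at least 200, and neuronal H3K27me3 stood at 15.8% and 25.7% of them. Where NSC H3K27me3 at an FDR under 1e-20 alone excluded a promoter, neuronal H3K27me3 was at 17.9% of NSC-only and 2.91% of kept promoters. With neuronal H3K27me3 at that FDR it was 2.77% and 0.285%, and with 50% of the H3K4me3 peak covered 9.57% and 1.24%. In every alternative run it was more frequent at NSC-only than at kept promoters. With no neuronal H3K4me3 within 10 kb, 676 promoters were left, and with equal numbers of H3K4me3 peaks 760. Low read numbers limit what an absence shows: 190 of the 867 had under 50 NSC reads. No paired analysis was possible because each group has 1 sample.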

Other observations

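Gene families outside the fixed lists were counted by symbol after the values had been seen, so their counts are descriptions only, beside 7.83% NSC-only among all gene symbols and neuronal H3K27me3 at 12.1% of the NSC-only ones. Of 14 potassium channel (Kcn) genes at these promoters 7 were NSC-only, and 5 of the 7, Kcnab3, Kcng1, Kcnk2, Kcnk5 and Kcnt1, had neuronal H3K27me3. Of these 5, only Kcnk2 had it at an FDR under 1e-20, and Kcnk2 had a neuronal H3K4me3 peak elsewhere in the gene. Kcnk5, of a leak channel, had 200 H3K4me3 reads over 27 in NSCs and 62 over 20 for neuronal H3K27me3. Of 10 X-linked Armcx, Bex and Tceal genes 5 were NSC-only, where the share of all X-linked promoters was 27.1%, Armcx1 with 108 reads over 14 and Bex1 with 35 over 2. Of 59 histone genes 11 were (18.6%, interval 9.69 to 30.9), although these genes are near-identical copies whose reads may be split or dropped in alignment. Hoxa2 (119 over 28) and Hoxa4 (91 over 22) were among 3 of 5 Hox genes.

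None of 73 mitochondrial ribosomal protein genes was NSC-only (upper bound of the interval 4.93%). None of 30 Ndufa, Ndufb and Ndufs genes of respiratory complex I (upper bound 11.6%) and none of 33 proteasome subunit genes (10.6%) was either, and of 85 Rpl and Rps genes 2 were (interval 0.286 to 8.24), Rpl13a and the pseudogene Rpl31-ps3. These last 3 intervals included the 7.83%. That share covers promoters of all read numbers, and among symbols with 200 or more NSC reads it was 0.523%. The NSC reads of these families were not compared, so none of 73 is a description only.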
